A study of Homo sapiens with 6 samples.

Results

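The genes described here encode the proteins of the cytosolic ribosome. Spots were taken whose annotated symbol, made current through its gene ID, is RPL or RPS followed by a number, or RPLP0, RPLP1, RPLP2, RPSA or FAU, without kinases, pseudogenes and the named paralogs RPS27L, RPL26L1, RPL36AL and RPL39L. This gave 149 spots of 59 genes out of 9169 spots and 6255 named genes tested, namely 95 spots of 38 large-subunit genes (RPL) and 54 spots of 21 small-subunit genes (RPS). RPL10L, an autosomal paralog of RPL10 known for its expression in testis, is included because the rule does not leave it out. All 149 spots passed the filter on empty spots, and no member spot lay at or under the stand-in value of 10 on any array. RNA came from SH-SY5Y, an established human neuroblastoma line with features of immature sympathetic neurons, on day 7 after transfection and under geneticin at 500 µg/ml. The 3 DN-TRF2 samples carried pIRES2-EGFP expressing dominant-negative TRF2 (TRF2 belongs to the shelterin complex that protects telomeres), and the 3 GFP control samples carried pEGF-C2 with no insert. Insert and plasmid backbone cannot be told apart. The samples were populations of transfected cells from 3 independent experiments, and each sample's RNA was labelled with 33P during reverse transcription and measured on its own array, which carries 9600 spots of cDNA. The comparison asks which genes differ when TRF2 is inhibited. The gene of TRF2 itself was not analysed here, so the labels were not checked against it.

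A ribosome joins a small subunit, which reads the mRNA, to a large subunit, which forms the peptide bond and leads the new chain out through a tunnel. Ribosomal proteins, most of which are needed in equal numbers, are made from some of the most abundant mRNAs of a growing cell. Most of these mRNAs begin with a terminal oligopyrimidine tract (TOP), a C followed by further C or T bases at the cap, through which mTOR signalling controls their translation. When assembly of ribosomes is disturbed, RPL5 and RPL11 in complex with the small 5S rRNA bind MDM2 and stabilise p53.

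The TOP sequence was visible at the listed transcription start of most members. The promoter table of RefSeq (GRCh38.p14) held 51 of the 59 genes. A C followed by at least 4 pyrimidines, starting within 5 bases of the listed start, was present in 42 of them (82.4%), against 21.1% of all 27305 promoters. The share was 78.8% for large-subunit and 88.9% for small-subunit genes. The letters CCGGAAG, the core bound by ETS factors such as GABP, occurred on either strand of the 300 bases around the start in 33.3% of members, against 10.7% of all promoters. AAGATGG, a core of YY1 sites whose first letters can overlap the end of CCGGAAG, occurred on either strand in 7 of 51 members (13.7%), against 6.06%. GGGCGG, an SP1 core, occurred on either strand in 60.8%, against 44.6%. TATAAA, the TATA box core, searched on the gene's strand alone, occurred in 2 of 51 members (3.92%), against 7.71%, a count too small to read as a depletion. These matches describe the sequence and show no binding. Windows from 60 bases before to 20 bases after the start are given below, with the pyrimidine tract in capitals, for the 3 genes of largest excess on 1 control array (RPL38, RPS25, RPL39), for RPS6 and RPL3, whose spots are described in full, and for the 2 genes furthest in the other direction on that array (RPS14, RPL10L).
RPL38, chr17:74203618-74203697, plus strand: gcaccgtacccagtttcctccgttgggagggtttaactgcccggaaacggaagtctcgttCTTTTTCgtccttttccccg
RPS25, chr11:119018324-119018403, minus strand: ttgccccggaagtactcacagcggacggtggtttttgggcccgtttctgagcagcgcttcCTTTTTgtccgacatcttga
RPL39, chrX:119791611-119791690, minus strand: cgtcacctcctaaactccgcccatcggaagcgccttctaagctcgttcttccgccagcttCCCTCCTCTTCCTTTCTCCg
RPS6, chr9:19380217-19380296, minus strand: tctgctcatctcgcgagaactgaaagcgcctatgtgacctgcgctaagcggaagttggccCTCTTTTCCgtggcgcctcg
RPL3, chr22:39319604-39319683, minus strand: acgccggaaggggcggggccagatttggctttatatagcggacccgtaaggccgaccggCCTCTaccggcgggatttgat
RPS14, chr5:150449720-150449799, minus strand: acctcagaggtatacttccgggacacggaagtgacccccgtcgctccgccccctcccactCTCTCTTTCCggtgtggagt
RPL10L, chr14:46651762-46651841, minus strand: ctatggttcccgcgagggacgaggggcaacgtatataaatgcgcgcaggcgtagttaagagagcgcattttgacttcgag
Of these 7 windows only that of RPL10L had no tract. RPS14, which lay low on the array where RPL38, RPS25 and RPL39 lay high, had a tract. Among members without a tract whose windows are not shown, RPL13 lay low on that array, at -0.24 (log2) relative to the other controls. The rest of them, RPL10, RPL6, RPL9, RPL27, RPS4X, RPS26 and RPL17, lay high, at 0.28, 0.55, 0.57, 0.67, 0.70, 0.74 and 1.25. A relation of the tract to the level on that array was not tested.

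One array stood apart from the rest. GFP control replicate 2 correlated with the other controls at 0.954 and 0.963 over all spots, whereas replicates 1 and 3 of the controls correlated at 0.980 and the DN-TRF2 arrays with each other at 0.987 to 0.992. Of all spots, 32.1% were highest on GFP control replicate 2 among the 6 arrays. Among the ribosomal proteins it was 96 of 149 spots (64.4%), and with spots averaged 47 of 59 genes, against 31.6% of all genes. In the deposited intensities, before any normalization, the median member spot was 2.48, 2.66 and 2.55 times the array median on DN-TRF2 replicates 1, 2 and 3. The ratio was 2.39, 3.83 and 2.61 on GFP control replicates 1, 2 and 3. Counts, medians and gene differences that move by over 1.5 times or change sign without GFP control replicate 2 are therefore also given without it. The exceptions are counts of spots by their agreement within genes and by signal, which are given with all 6 arrays.

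No ribosomal protein spot passed the test between DN-TRF2 and GFP control cells, 0 of 149 at an adjusted p under 0.05 in limma, and over the whole array 0% of spots passed. At an unadjusted p under 0.05, 1 member spot was lower and 1 higher, that is 0.671% each, against 1.1% of all spots lower and 2.31% higher. The replicate block gave 3 member spots lower and 1 higher, against 2.08% and 3.66% of all spots, and leaving out GFP control replicate 2 gave 4 lower and 2 higher, against 4.31% and 4.33%. The groups did not overlap at 8 member spots in the lower direction, against 4.43% of all spots, and the mean was lower at 112 of 149 (75.2%), against 52.7%, or at 67 without GFP control replicate 2, against 50% of all spots. With the spots of each gene averaged, 0 of 59 genes passed and 0% of all genes did. At an unadjusted p under 0.05, 1 gene was lower and 0 were higher, against 1.07% and 2.49% of all genes. These counts were the same with the replicate block, against 1.93% and 3.37% of all genes, and without GFP control replicate 2, against 3.8% and 4.32%. The mean was nevertheless lower in DN-TRF2 cells for 48 of 59 member genes (81.4%), where 52% of all genes had a lower mean, and the median difference was -0.11 (log2, DN-TRF2 minus GFP control) against -0.0067 over all genes. Without GFP control replicate 2 the count was 19 of 59 (32.2%) against 49.1% of all genes, and the median turned to 0.039 against 0.0035 over all genes. Between the groups as deposited, ribosomal protein genes thus shared a direction that was not kept without 1 control array. As these are bulk samples, fewer cells of a type and less RNA per cell cannot be told apart.

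The same held in each subunit. Large-subunit genes had a lower mean in 31 of 38 cases with a median difference of -0.11, and small-subunit genes in 17 of 21 with a median of -0.12. Without GFP control replicate 2 the medians were 0.034 and 0.073, with 12 of 38 and 7 of 21 genes lower. The mean level of the large-subunit genes relative to all other genes was 1.54, 1.69 and 1.68 (log2) on DN-TRF2 replicates 1, 2 and 3, and 1.48, 2.06 and 1.71 on GFP control replicates 1, 2 and 3. For the small-subunit genes it was 1.30, 1.44 and 1.42 on the DN-TRF2 arrays and 1.26, 1.85 and 1.47 on the GFP control arrays. In both subunits GFP control replicate 2 was the highest array and GFP control replicate 1 the lowest, and all 3 DN-TRF2 arrays lay between them. The level of all members averaged 1.55 ± 0.085 in DN-TRF2 cells and 1.67 ± 0.29 in GFP control cells (SD, n = 3 each), a difference smaller than the SD of the controls.

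**Figure D1:**
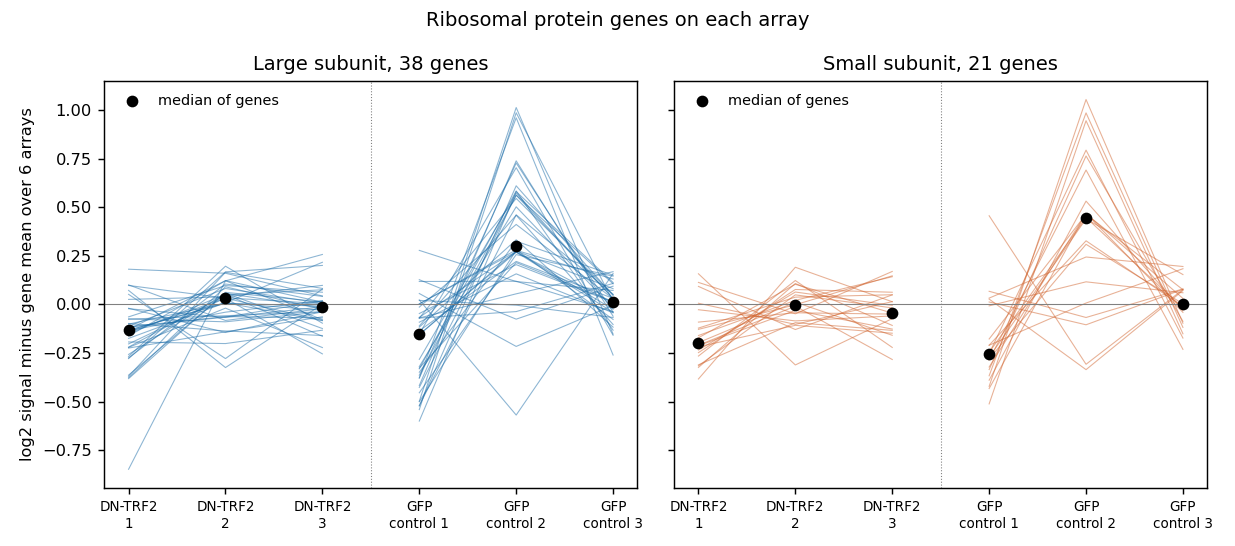
Log2 signal of each ribosomal protein gene on each array minus the gene's mean over the 6 arrays, for 38 large-subunit and 21 small-subunit genes; thin lines join the arrays of a group for 1 gene and black points are medians over genes. GFP control replicate 2 has the highest median in both subunits and the widest spread among genes, and the DN-TRF2 arrays lie between GFP control replicates 1 and 2.

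**Figure D2:**
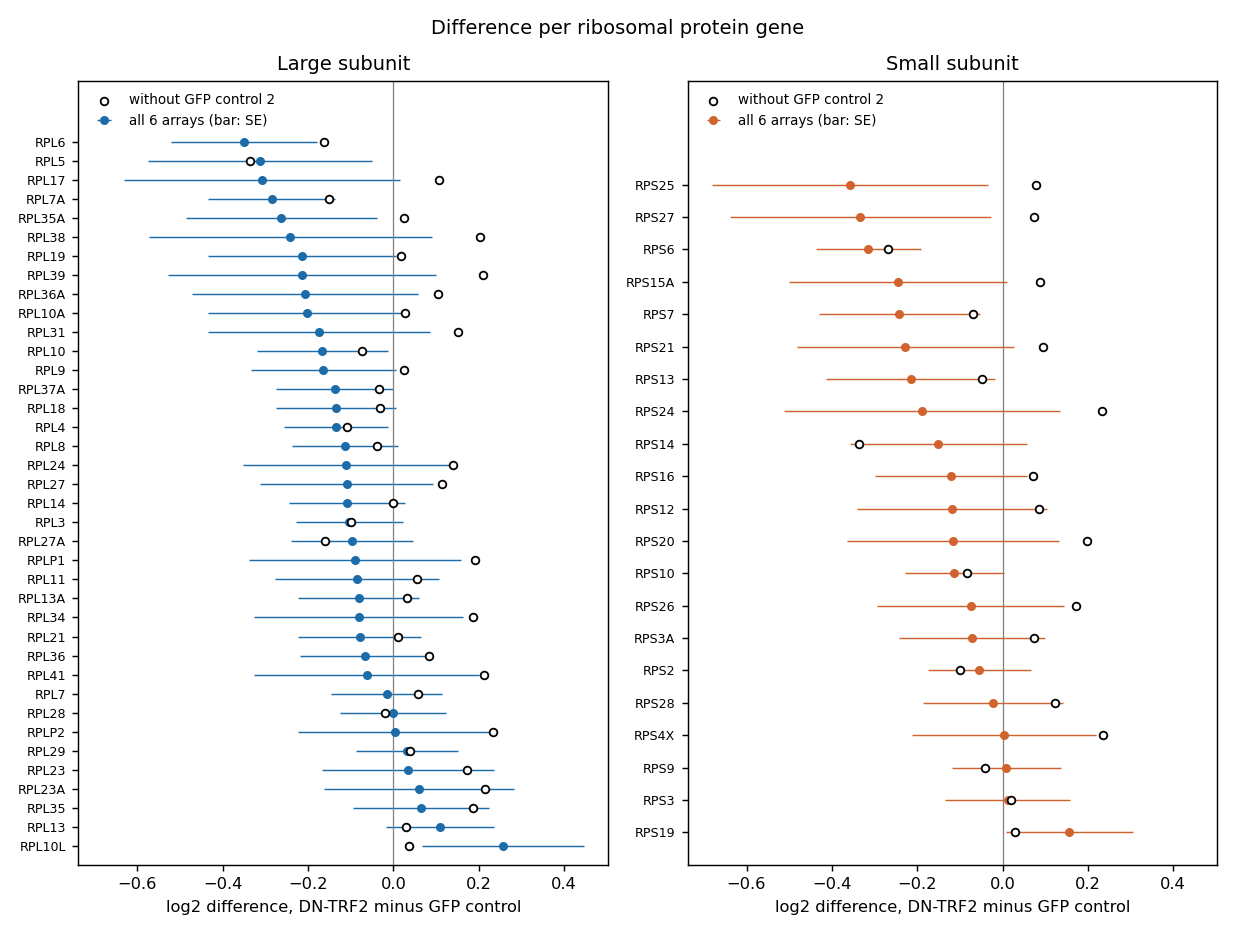
Log2 difference per gene, DN-TRF2 minus GFP control, with all 6 arrays (filled points, bars are the standard error of limma) and without GFP control replicate 2 (open points). With all arrays 48 of 59 genes lie left of 0, and without that array 19 do.

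The excess on GFP control replicate 2 was graded among the members. Relative to the mean of the other 2 controls it ran from -0.66 to 1.34 (log2) with a median of 0.45, and 27 of 59 genes exceeded 0.5, against 10.4% of all genes and a median of 0.020. RPL38, a large-subunit protein linked to the translation of Hox mRNAs in mouse, had 10.55, 10.73 and 10.44 (normalized log2 signal) on the DN-TRF2 arrays and 10.20, 11.71 and 10.54 on the GFP control arrays. RPS25, a small-subunit protein that some viral mRNAs need for internal initiation, had 10.55, 10.76 and 10.72 in DN-TRF2 and 10.43, 11.91 and 10.76 in GFP control cells, averaged over 2 spots. RPL39, a short protein that lines the exit tunnel, had 10.21, 10.53 and 10.35 in DN-TRF2 and 10.09, 11.43 and 10.21 in GFP control cells. In these 3 genes the high value is a single array, and the DN-TRF2 arrays lay within the range of the controls. Their differences of -0.24 ± 0.33, -0.36 ± 0.32 and -0.21 ± 0.31 (SE) became 0.20, 0.079 and 0.21 without that array.

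At the other end of that order were RPS14 and RPL10L. RPS14, whose loss of 1 copy underlies the anaemia of the 5q- syndrome, had 10.02, 9.55 and 9.79 in DN-TRF2 and 10.32, 9.55 and 9.94 in GFP control cells over its 4 spots. Its groups overlapped, DN-TRF2 replicate 1 lying above GFP controls 2 and 3. The difference was -0.15 ± 0.21 with all arrays and -0.34 without GFP control replicate 2, and the unadjusted p in limma was 0.487 and 0.085. RPL10L had 10.82, 10.80 and 10.69 in DN-TRF2 and 10.67, 10.07 and 10.80 in GFP control cells, a difference of 0.26 ± 0.19 that shrank to 0.037 without GFP control replicate 2. RPS19, a protein of the head of the small subunit that is mutated in Diamond-Blackfan anaemia, had 10.97, 10.81 and 11.03 in DN-TRF2 and 10.88, 10.52 and 10.93 in GFP control cells, and also lay low on that array. Leaving out GFP control replicate 2 brought the median range between the highest and lowest array of a member gene to 0.35, against 0.73 with it. For all genes these ranges were 0.38 and 0.51.

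**Figure D3:**
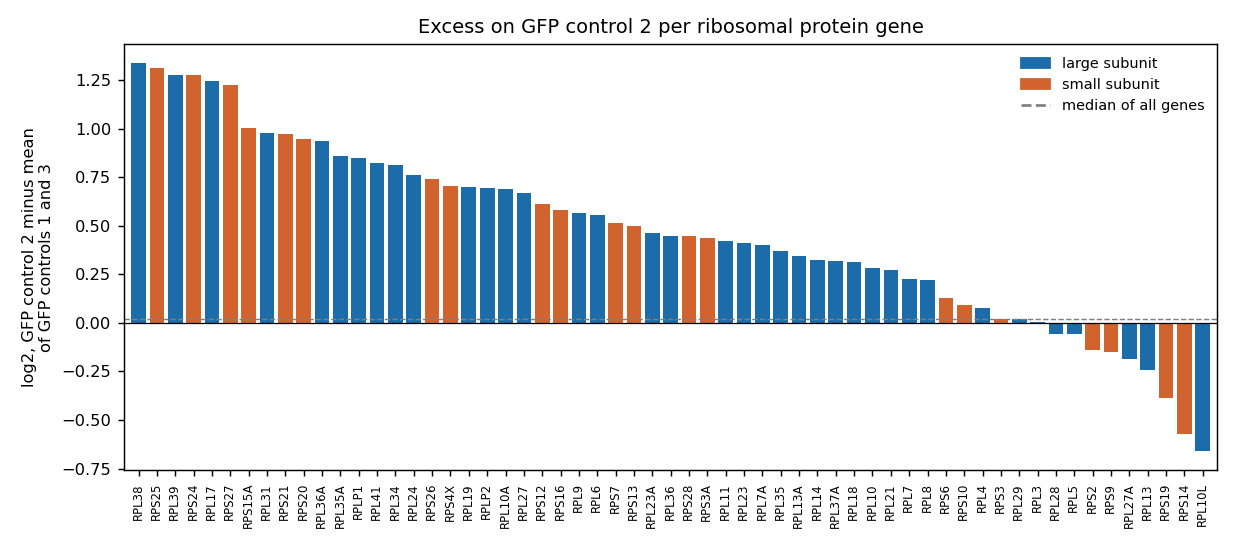
Log2 signal of GFP control replicate 2 minus the mean of GFP controls 1 and 3 for each of the 59 ribosomal protein genes, coloured by subunit, with the median of all genes as a dashed line. Genes of both subunits are found along the whole order, from RPL38 at 1.34 to RPL10L at -0.66.

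RPS6, the small-subunit protein that the S6 kinases phosphorylate downstream of mTOR, was the 1 member gene with an unadjusted p under 0.05 and a lower mean at each of its spots. Averaged over its 3 spots it had 10.18, 10.29 and 10.25 in DN-TRF2 and 10.43, 10.64 and 10.59 in GFP control cells, so the groups did not overlap, which held in the lower direction for 4 of 59 member genes and for 4.25% of all genes (in the higher direction for 0 of 59 and for 4.7%). The difference was -0.31 ± 0.12 (SE), or -0.27 without GFP control replicate 2. The unadjusted p in limma was 0.031 and the adjusted p was 1.00. At spot 8256 the values were 10.03, 10.23 and 10.04 in DN-TRF2 and 10.24, 10.75 and 10.50 in GFP control cells. At spot 2793 they were 10.22, 10.22 and 10.29 in DN-TRF2 and 10.42, 10.80 and 10.45 in GFP control cells. At both spots every DN-TRF2 array lay below every control. At spot 1245 they were 10.28, 10.42 and 10.40 in DN-TRF2 and 10.62, 10.36 and 10.81 in GFP control cells, and there GFP control replicate 2 lay among the DN-TRF2 arrays. The 3 spots differed by -0.40 ± 0.17, -0.31 ± 0.15 and -0.23 ± 0.16, each with an adjusted p of 0.999 in limma, or by -0.27, -0.19 and -0.35 without GFP control replicate 2.

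RPL6 and RPL7A were the large-subunit genes whose groups did not overlap. RPL6, with 1 spot, had 10.60, 10.59 and 10.66 in DN-TRF2 and 10.72, 11.33 and 10.84 in GFP control cells. The gap between the groups was narrow except on GFP control replicate 2, and the difference of -0.35 ± 0.17 came to -0.16 without it. RPL7A had 10.47, 10.56 and 10.63 in DN-TRF2 and 10.68, 11.11 and 10.73 in GFP control cells over its 2 spots, with a difference of -0.29 ± 0.15, or -0.15 without that array. RPS10, in the head of the small subunit, also had groups apart, but by a small margin, with a difference of -0.11 ± 0.12. The adjusted p in limma was 1.00 for each of these genes.

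RPL3, which reaches toward the peptidyl transferase centre, was represented by 11 spots of different clones and differed by -0.10 ± 0.13 as a gene. Leaving out GFP control replicate 3 gave -0.044 and leaving out replicate 1 of the controls gave -0.16. The value was 0.17 where the brightest or the first spot stood for the gene. Over the gene it had 10.75, 10.85 and 10.91 in DN-TRF2 and 10.82, 10.94 and 11.06 in GFP control cells, and the groups overlapped. Of its spots 9 were lower, by -0.32, -0.31, -0.29, -0.25, -0.16, -0.090, -0.041, -0.012 and -0.011, and 2 were higher, by 0.17 and 0.18. Without GFP control replicate 2 the spots ran from -0.24 to 0.20, again with 9 lower. The groups were apart at spot 2204. There it had 11.18, 11.30 and 11.01 in DN-TRF2 and 11.47, 11.58 and 11.32 in GFP control cells. RPL3 had almost no excess on GFP control replicate 2, at 0.0051 over the gene, against 0.55 for RPL6 and 0.40 for RPL7A. Single spots of RPL3 ran from -0.62 to 0.44 in that measure.

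RPL13, of the large subunit, went the other way at 6 of its 8 spots. Over the gene it had 10.41, 10.43 and 10.49 in DN-TRF2 and 10.44, 10.17 and 10.38 in GFP control cells, a difference of 0.11 ± 0.13, or 0.029 without GFP control replicate 2. At spot 2023 the values were 10.52, 10.76 and 10.75 in DN-TRF2 and 10.18, 10.42 and 10.30 in GFP control cells. This was the 1 member spot with every DN-TRF2 array above every control, which occurred at 4.28% of all spots, and the difference was 0.37 ± 0.15 (unadjusted p = 0.030, adjusted p = 0.999 in limma). It did not rest on GFP control replicate 2, being 0.43 without it. At the other spots of RPL13 the groups overlapped, with differences of 0.29, 0.17, 0.15, 0.097, 0.061, -0.085 and -0.19. Without GFP control replicate 2, 4 of the 8 spots were higher.

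Spots of the same gene did not always point the same way. Among the 37 member genes with at least 2 spots, all spots were lower in 17, all were higher in 2 and the signs were mixed in the rest. Counts of spots in this paragraph are with all 6 arrays, and the spots of a gene share those arrays, GFP control replicate 2 included. Without that array 67 of 149 member spots were lower, against 112 with it. The range of differences within such a gene had a median of 0.16, over genes of like and mixed signs together, and the median standard error of a member spot was 0.19. That error reflects the spread between arrays, which the spots of a gene share, so it does not measure disagreement between spots. RPS2, near the mRNA entry site, was lower at 7 of 9 spots and ran from -0.30 to 0.29. RPS3A was lower at 6 of 8 spots within a narrow range of -0.14 to 0.020, RPL4, which extends into the exit tunnel, at 6 of 7, RPL9 at 4 of 5, RPL27 at 4 of 4 and RPS9 at 3 of 4. Over their spots RPS3A, RPL9 and RPL27 differed by -0.072, -0.16 and -0.11, or by 0.073, 0.024 and 0.11 without GFP control replicate 2. RPS2, RPL4 and RPS9 differed by -0.054, -0.13 and 0.0090, or by -0.10, -0.11 and -0.040 without it. Of 3 member clones present at 2 positions, that of RPL9 gave mean signals of 10.47 and 12.83, with differences of 0.024 and -0.14. The clone of RPL13A gave 13.66 and 13.62, with differences of -0.11 at each spot, and that of RPS9 gave 12.51 and 12.79, with differences of -0.028 and -0.042. Over its 3 spots RPL13A differed by -0.082, or by 0.031 without GFP control replicate 2. Among the 19 member spots with a mean log2 signal above 12, the median excess on GFP control replicate 2 was 0.060 and 13 were lower in DN-TRF2, whereas among the other 130 the excess was 0.43 and 99 were lower. RPL27A, with 3 spots, ran from -0.44 to 0.31, and RPL7, also with 3, from -0.12 to 0.17. Clones of ribosomal proteins can also bind RNA of related genes and processed pseudogenes.

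**Figure D4:**
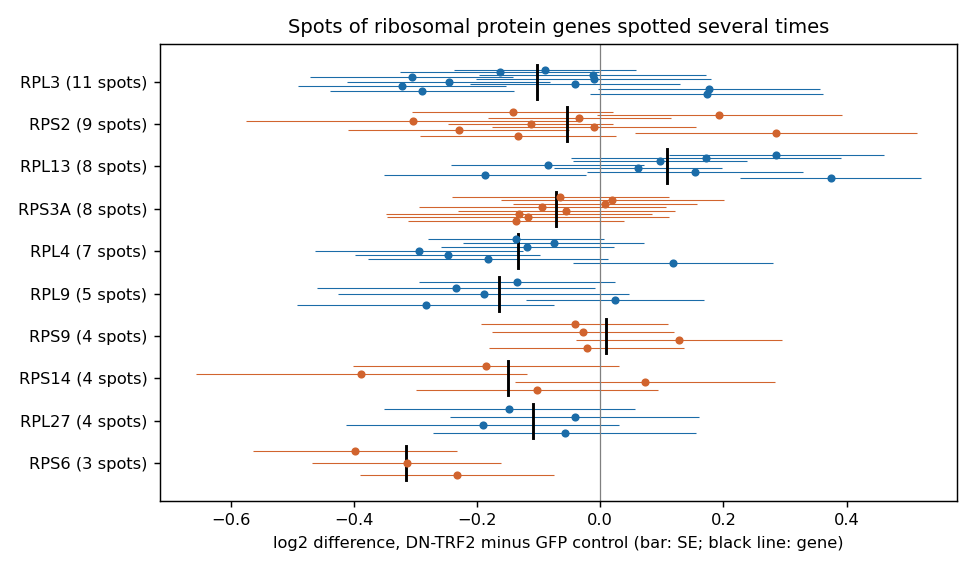
Log2 difference of every spot, DN-TRF2 minus GFP control, with its standard error, for member genes with at least 4 spots and for RPS6; the black line is the gene with its spots averaged. The spots of RPS6 all lie left of 0, and those of RPL13, RPS2 and RPL3 lie on both sides.

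By place and role in the ribosome no subset was called. Of the stalk proteins, which recruit translation factors, RPLP1 and RPLP2 were measured and differed by -0.090 ± 0.25 and 0.0042 ± 0.23, or by 0.19 and 0.23 without GFP control replicate 2. RPL5, which carries 5S rRNA with RPL11, was set by 1 DN-TRF2 array: it had 11.66, 12.63 and 12.77 in DN-TRF2 and 12.79, 12.63 and 12.58 in GFP control cells. Its difference was -0.31 ± 0.26 and that of RPL11 -0.085 ± 0.19, which without GFP control replicate 2 were -0.34 and 0.055. Among 6 measured genes listed as binding MDM2, 4 had a lower mean, with RPS7 at -0.24 ± 0.19 the one of smallest p. Without GFP control replicate 2, 3 of the 6 were lower and RPS7 differed by -0.070. Of the 6 measured proteins listed around the tunnel exit, 4 were lower with all arrays and 0 without GFP control replicate 2, RPL19 having the smallest p at -0.21 ± 0.22, or 0.018 without that array. Genes mutated in Diamond-Blackfan anaemia were lower in 7 of 8 cases, and in 3 of 8 without that array. Proteins of the head of the small subunit were lower in 5 of 7 cases and in 1 of 7 without it.

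Same-numbered arrays deviated together from their group means, and the replicate numbers were taken as pairs. Within pair 1 the median difference of member genes was 0.069, with 24 of 59 genes lower. In pair 2, which holds GFP control replicate 2, it was -0.34, with 54 lower, and in pair 3 -0.031, with 38 lower. A lower value in all 3 pairs was found for 17 of 59 member genes (28.8%), against 15.2% of all genes. As pair 2 is among the 3, this count is not free of GFP control replicate 2. RPS6 was among them, at -0.25, -0.35 and -0.34 in pairs 1, 2 and 3. RPS13 had -0.053, -0.33 and -0.26 and RPS7 -0.088, -0.34 and -0.30. RPS19 was the 1 member higher in all 3 pairs, at 0.086, 0.29 and 0.098, which held for 722 of all 6255 genes. Its difference of 0.16 ± 0.15 came to 0.030 without GFP control replicate 2. With the replicate number as a block in limma, 0 of 59 genes passed, and the unadjusted p of RPS6 was 0.032.

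Genes that build ribosomes were split evenly in direction. Of 79 listed assembly factors 54 were measured, 26 lower and 28 higher, with a median of 0.0071 and 0 past limma's test over all genes. Without GFP control replicate 2, 28 were lower and the median was -0.0072. NIP7, a factor of large-subunit maturation, differed by 0.26 ± 0.13, IMP4, of the pre-rRNA processing complex, by 0.34 ± 0.22, NOC2L by -0.30 ± 0.15 and RIOK2, a kinase of late small-subunit maturation, by -0.30 ± 0.16. Without that array IMP4 differed by 0.11, NOC2L by -0.18 and RIOK2 by -0.15. Their level relative to other genes was 0.48, 0.50 and 0.52 on the DN-TRF2 arrays and 0.50, 0.49 and 0.51 on the GFP control arrays, with GFP control replicate 2 inside the range of the others. Subunits and factors of RNA polymerases I and III, which transcribe ribosomal and transfer RNAs, were lower in 13 of 22 measured genes with a median of -0.041 and 0 called, and in 10 of 22 with a median of 0.026 without GFP control replicate 2. POLR3F differed by -0.42 ± 0.17 and the shared subunit gene POLR2E by -0.27 ± 0.12, and POLR3GL by 0.18 ± 0.11.

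Other mRNAs listed as carrying a TOP tract, mostly of translation factors, were lower in 15 of 20 measured genes with a median of -0.093 and 0 called, and in 12 of 20 with a median of -0.037 without GFP control replicate 2. EEF1D, an exchange factor of elongation, differed by -0.24 ± 0.18, EEF1A2, an elongation factor, by -0.21 ± 0.13, and EEF1A1, its paralog with 9 spots, by 0.17 ± 0.15. Without that array EEF1D differed by -0.40 and EEF1A1 by 0.091. Their mean level was 0.94, 0.94 and 1.01 on the DN-TRF2 arrays and 0.96, 1.10 and 1.03 on the GFP control arrays, highest on GFP control replicate 2. Gene by gene, 7 of 20 were highest on that array, against 31.6% of all genes. Their median excess there was 0.065, against 0.45 for the ribosomal proteins and 0.020 for all genes. Genes of growth signalling to ribosomes were lower in 9 of 18 with 0 called, among them EIF4E, which binds the cap, at -0.26 ± 0.13, and EIF4EBP2, its inhibitor, at 0.49 ± 0.23, or 0.22 without GFP control replicate 2. Of the paralogs left out by the rule, RPL36AL, RPL39L and RPL26L1 differed by -0.17 ± 0.26, -0.079 ± 0.21 and -0.051 ± 0.13, or by 0.15, 0.12 and -0.033 without that array. RPS27L, a p53 target gene, differed by 0.31 ± 0.26, or by 0.62 without it.

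**Figure D5:**
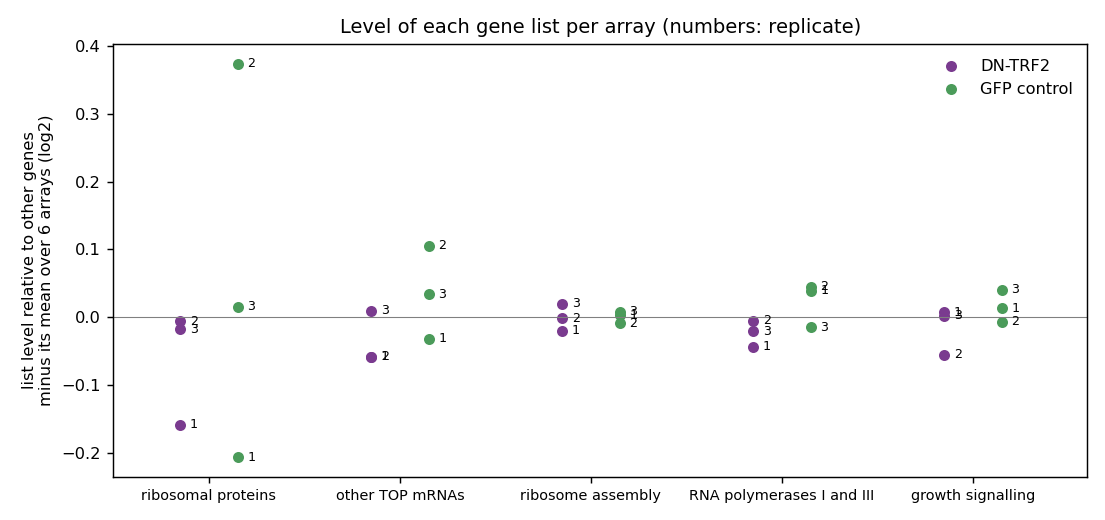
Mean level of each gene list relative to the other genes on each array, minus its mean over the 6 arrays, with replicate numbers beside the points and DN-TRF2 arrays left of GFP control arrays. Ribosomal proteins have GFP control replicates 1 and 2 at the extremes, and the lists of ribosome assembly, RNA polymerases I and III and growth signalling span a narrow range.

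Other properties of the arrays that could move with these values were measured. Of 21 listed sympathoadrenal markers 12 were measured and 9 lay above the median gene signal, among them CHGA, CHGB, DBH and GATA3, but signals of different probes cannot be compared as levels, and this is no check of the line's identity. Markers of substrate-adherent and stromal cells were higher in 10 of 16 measured genes, with levels relative to other genes of 0.34 to 0.41 on the DN-TRF2 arrays and 0.19 to 0.33 on the GFP control arrays. Blood and immune markers were higher in 2 of 5, with levels of -0.39 to 0.011 on the DN-TRF2 arrays and -0.27 to -0.14 on the GFP control arrays. Their part in the result was not tested. The spread within a group was larger in the controls, with a median SD per member spot of 0.14 in DN-TRF2 and 0.33 in GFP control cells, and of 0.13 and 0.24 over all spots.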

How the data were processed

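Per the labels' protocols, about 5 µg of total RNA per sample was reverse transcribed with 33P-dCTP, and each sample has its own 9600-spot array. The authors deposited linear intensity values per spot; the sources used here do not give the image software, background treatment or scaling. Spots with no signal carry the value 10, blank positions included, so no background level can be had. Dropping the 384 blanks (every 25th position) and 47 more spots that never exceeded 10 gave 9169 spots for testing. Names come from the platform annotation, updated by gene ID (8493 of 8517 annotated spots matched), and 21 spots with several genes were not named. Values were log2(intensity + 50), quantile-normalized between arrays; the offset shrinks fold changes where signal is low. Each spot, and each gene with its spots averaged, was tested with limma 3.58.1 (R 4.3.3; lmFit and eBayes), two-sided, with Benjamini-Hochberg adjustment over all spots or genes and a threshold of 0.05. Errors beside differences are limma's moderated standard errors. Unless the replicate block is named, errors and p-values are from the fit without it and do not use the pairing of replicate numbers. Values without GFP control replicate 2 were normalized anew. The limma fit without the replicate block was tested on simulated data, and the averaging of spots was checked. The simulated shifts were larger than the differences given here, and no simulated array stood apart. Normalization, the block and leaving out arrays were not part of that test. The number of arrays limits the precision, with a median standard error of 0.19 per member gene.

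Members, gene lists and tests were chosen with earlier results of these data known. Named were RPL3, RPL6, RPL13 and RPS6, and member genes with at least 4 spots. Also named were those with the spots of smallest p by subunit and direction and those of smallest p per role and list. The 3 of largest excess on GFP control replicate 2 were named too. RPS13, RPL5, RPL11, RPLP1, RPLP2, RPL10, RPL17, RPS4X, RPS26 and the identity markers were named after their values were seen. Deviations from the group means correlated between same-numbered arrays at 0.390, 0.296 and 0.246 over all spots, which put every pair above 0.1, and replicate numbers were treated as pairs; the labels name independent experiments and no pairing. Alternatives were the offset, the normalization, dim spots, array weights, the replicate block, the choice of spot and leaving out arrays. Promoter sequences are those of RefSeq on GRCh38.p14.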

Additional observations from a re-analysis of the deposited data

How the results depend on the processing

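No ribosomal protein spot or gene, and no gene of the pathway lists, passed limma's adjusted p under any alternative run, the replicate block included (0 calls with the block). Over all spots 0 passed throughout, except in a fit chosen after seeing the data, on replicates 1 and 3 with the replicate block, where 7 spots passed, none of them ribosomal. The direction shared by the members rested on GFP control replicate 2. The count of member genes with a lower mean was 19 without it and 21 without replicate 2 of both groups in the blocked fit, against 48 with all arrays. With 1 array left out in turn it ran from 19 to 53, the median difference of all members from -0.24 to 0.039, that of RPL genes from -0.24 to 0.034 and that of RPS genes from -0.28 to 0.073. The low end of each median came without GFP control replicate 1, and the high end without GFP control replicate 2. Under changes of offset, normalization, dim-spot filter, array weights, block or spot choice with all arrays these medians stayed below 0, that of all members coming to -0.036 with array weights. RPL3 turned to 0.17 with the brightest spot per gene and to 0.17 with the first spot, which follows from the choice of spot, and ran from -0.16 to -0.044 with 1 array left out. RPS6 and RPL6 kept a lower mean under every alternative run. Each group has 3 arrays, and the median standard error per member gene was 0.19. A difference larger than that is not thereby resolved. RPS25 at -0.36 and RPL6 at -0.35 had unadjusted p of 0.299 and 0.070 in limma, and no member passed the adjusted threshold.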
